A study of Mus musculus with 61 samples.

Results

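RNA of the embryonic mouse forebrain (FB) was compared with RNA of the hindbrain (HB) at 2 embryonic stages, E10.5 and E11.5. The libraries were chosen by the tissue and stage in their column header: 7 of the 61 in the table, of which 3 were forebrain (1 at E10.5, 2 at E11.5) and 4 were hindbrain (2 at E10.5, 2 at E11.5). The labels give fetal tissue and the embryonic day and name no treatment. The sources used here do not give strain, genotype, sex or how many embryos went into a library. Libraries of a tissue and stage are numbered in the labels, with no word on whether the embryos were separate, so a p-value here reflects how far the deposited libraries differ among themselves, possibly for technical reasons. Forebrain at E10.5 had 1 library, so its spread was assumed to be that of the other tissues and stages in the same fit. Values are in TPM, the authors' abundance unit, which sets transcripts per length on the same total in each library, and every difference below is the forebrain mean minus the hindbrain mean of log2(TPM + 1), with its standard error (SE).

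At these stages the neural tube has closed and is patterned along its length. The forebrain gives rise to the telencephalon (cortex and basal ganglia) and to the diencephalon with the hypothalamus and the eye vesicles. The hindbrain is divided into rhombomeres, whose identities depend on Hox genes and retinoic acid, and it forms the cerebellum, the pons and the medulla with the cranial motor nuclei. Neurons are born in the ventricular zone of both regions, and the hindbrain is known to start producing them before the cortex does.

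Of 43346 gene identifiers in the table, 15436 reached 1 TPM in at least 2 of the 7 libraries and were tested. Between 13780 and 14357 genes reached that level in a forebrain library, and between 14231 and 15081 in a hindbrain library. Read depth is unknown, since TPM keeps no counts. Mitochondrial genes took 8.42% of the TPM of the forebrain library and 8.60% and 9.53% of the hindbrain libraries at E10.5, against 3.15% to 3.76% in forebrain and 4.22% to 4.90% in hindbrain at E11.5. Haemoglobin genes took 1.30% to 2.05% in the 7 libraries. Replicates of a group correlated at 0.990 to 0.995 across genes (Pearson's r, genes not being independent), and at least 99.1% of the tested genes had different values in the 2 libraries of a pair.

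Shown here are the 5′ sequences of 4 genes that stand among the 20 highest or the 20 lowest differences. Emx2 and Tbr1 were higher in forebrain, and Hoxa2 and Sst were higher in hindbrain. All 4 hold a pattern marked below, which most promoters at hand for these genes lack, so they do not represent the groups. Each run holds 250 bases before and 50 bases after an annotated transcript start, read 5′ to 3′ along the gene's own strand, from RefSeq on GRCm38.p6. Capitals in Emx2 and Tbr1 mark TAATTA, a core that many homeodomain proteins recognise, and capitals in Hoxa2 and Sst mark TGATNNAT on either strand, a pattern recognised by Hox proteins with their partners.
Emx2 (chr19:59458440-59458739, plus strand): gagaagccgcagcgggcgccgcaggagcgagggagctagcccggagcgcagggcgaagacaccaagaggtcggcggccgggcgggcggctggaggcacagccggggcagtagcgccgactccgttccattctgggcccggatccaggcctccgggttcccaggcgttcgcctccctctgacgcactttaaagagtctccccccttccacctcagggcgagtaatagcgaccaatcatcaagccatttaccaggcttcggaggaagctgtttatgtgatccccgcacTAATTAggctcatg
Tbr1 (chr2:61804203-61804502, plus strand): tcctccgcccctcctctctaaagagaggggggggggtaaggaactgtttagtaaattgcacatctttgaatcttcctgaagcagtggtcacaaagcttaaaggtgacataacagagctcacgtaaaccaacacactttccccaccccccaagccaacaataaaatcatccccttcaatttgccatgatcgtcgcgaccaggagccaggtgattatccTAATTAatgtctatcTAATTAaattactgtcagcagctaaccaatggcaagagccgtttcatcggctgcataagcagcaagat
Hoxa2 (chr6:52164782-52165081, minus strand): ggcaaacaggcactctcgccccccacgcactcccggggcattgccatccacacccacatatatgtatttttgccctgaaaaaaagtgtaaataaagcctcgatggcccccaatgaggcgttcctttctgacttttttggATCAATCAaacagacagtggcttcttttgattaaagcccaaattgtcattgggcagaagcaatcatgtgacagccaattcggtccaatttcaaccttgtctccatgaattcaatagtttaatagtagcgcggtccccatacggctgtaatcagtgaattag
Sst (chr16:23890795-23891094, minus strand): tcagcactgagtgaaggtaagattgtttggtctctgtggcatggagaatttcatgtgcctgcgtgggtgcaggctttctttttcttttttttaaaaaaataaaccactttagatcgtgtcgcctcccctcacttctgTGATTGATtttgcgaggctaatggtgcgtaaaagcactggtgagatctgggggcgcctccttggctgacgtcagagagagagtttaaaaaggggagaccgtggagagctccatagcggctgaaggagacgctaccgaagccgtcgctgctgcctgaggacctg
Promoters of this kind were at hand for 16 of the 20 highest and 11 of the 20 lowest genes. TAATTA stood in 3 of the 16, in 0 of the 11 and in 5.3% of all 27025 promoters searched. TGATNNAT stood in 0 of the 16, in 3 of the 11 (the third was Sncg) and in 9.0% of all. CAGCTG, an E-box letter pattern of proneural factors, stood in 2 of the 16, in 2 of the 11 and in 16.1% of all. It is not in the 4 sequences printed, each of which holds only 1 of the 3 patterns. These are letter matches in a 300-base window and were not tested for binding.

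The forebrain differed from the hindbrain in 849 genes (5.5% of those tested), called at an adjusted p under 0.05 and a log2 difference of at least 1. Of these, 126 were higher in forebrain (0.816%) and 723 were lower (4.68%), so that 14.8% of the calls were higher. Counts of called list members below are to be set against these shares. Among the 20 highest genes stood the transcription factors Nr2e1, Emx2, Fezf2 and Tbr1, and among the 20 lowest the Hox genes Hoxb3 and Hoxa2, the neurofilament genes Nefl and Nefm and Atoh1, a factor of rhombic lip neurons. Among the largest differences, of 3 or more on the log2 scale, 24 genes were higher and 46 were lower in forebrain. In 41 of the 126 higher genes the hindbrain mean was under 1 TPM, and in 248 of the 723 lower genes the forebrain mean was. The split depends on scaling: the median difference of all genes tested was -0.09, and it moved to 0.03 with median-of-ratios scaling and 0.05 with quantile normalization, under which 142 and 194 genes were higher and 563 and 494 were lower (20.1% and 28.2% higher).

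The 3 forebrain libraries lay above all 4 hindbrain libraries in 960 genes tested (6.22%) and below all 4 in 1781, so that 17.8% of the genes tested had no overlap. Of the 849 called genes, 644 had no overlap between the regions in the direction of their call. Protein-coding genes made up 100 of the higher and 662 of the lower calls, and long noncoding RNAs 17 and 43. Taken by stage, 817 genes were called at E10.5 (5.29%), with 128 higher (0.829%) and 689 lower (4.46%), and 1008 at E11.5 (6.53%), with 165 higher (1.07%) and 843 lower (5.46%). Genes called at both stages with the same sign numbered 547, and 0 were called with opposite signs. The midbrain, the region between the compared ones, had a mean nearer to hindbrain for 96 of the 126 higher genes and nearer to forebrain for 322 of the 723 lower genes.

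**Figure D1:**
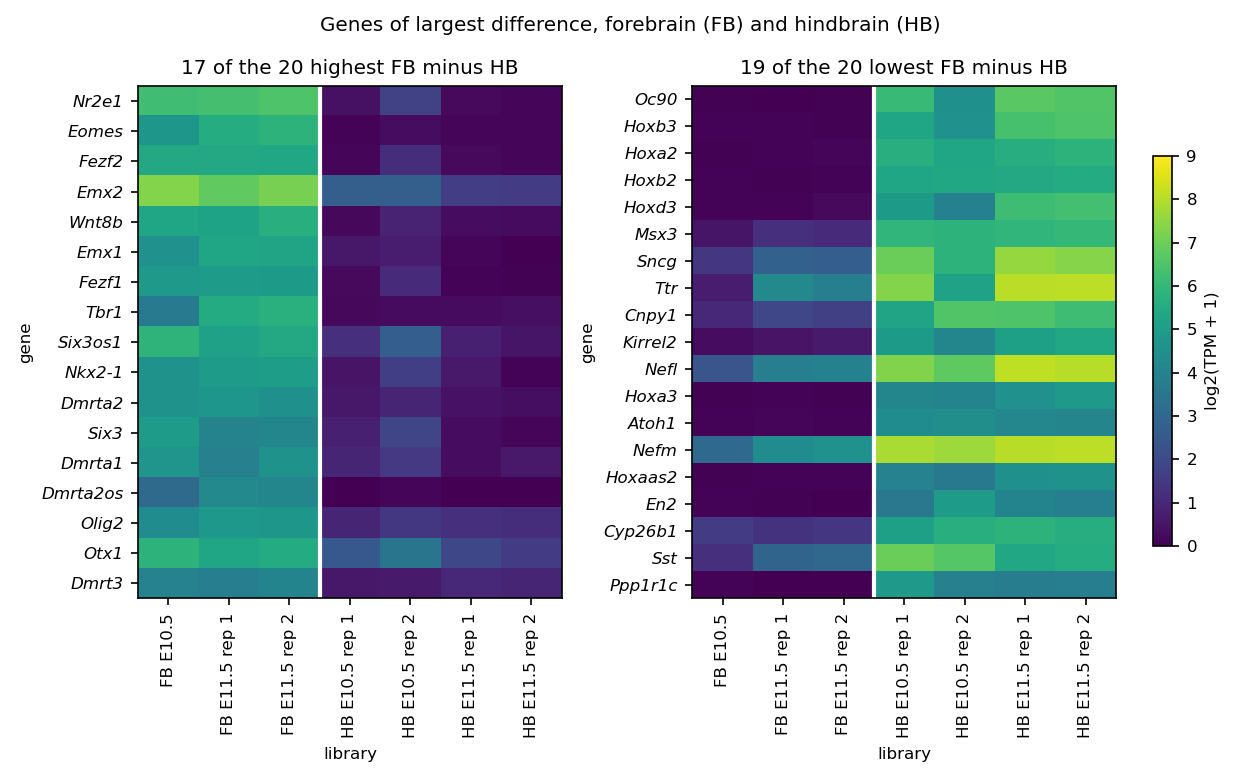
Level of 17 of the 20 genes with the highest and 19 of the 20 with the lowest forebrain minus hindbrain difference, as log2(TPM + 1), with forebrain (FB) libraries left of the white line and hindbrain (HB) libraries right of it. Each gene is called and its FB and HB libraries do not overlap; Nr2e1 leads on the left (difference 5.70) and Oc90 on the right (-5.94).

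The telencephalic patterning factors were high in forebrain and low in hindbrain. Of 16 on the list, 15 were tested, 12 were called higher and 0 lower, with a median difference of 3.26 against -0.09 over all genes. Nr2e1 (Tlx), a nuclear receptor that maintains neural stem cells, had 74.7, 80.5 and 91.8 TPM in the forebrain libraries, against 0.33, 2.45, 0.18 and 0.08 TPM in the hindbrain libraries. Its difference was 5.70 (SE 0.20, adjusted p = 8.76e-23), the highest of all genes named by size, and the groups were far apart. The gene spans chr10:42561963-42583632 on mm10, minus strand.

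Emx2, a homeobox factor of the caudal and medial cortex, had 160 TPM at E10.5 and 112 and 143 TPM at E11.5 in forebrain, against 5.55, 5.53, 2.11 and 1.98 TPM in hindbrain (difference 5.01, SE 0.29, adjusted p = 1.11e-16). Its relative Emx1 had 22.2, 39.1 and 37.3 TPM in forebrain, against 0.50, 0.63, 0.08 and 0.02 TPM in hindbrain. Both genes were called at each stage.

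Fezf1 and Fezf2, zinc finger repressors of the rostral forebrain, differed by 4.53 (SE 0.19) and 5.01 (SE 0.31). Fezf2 was nearly level in forebrain, at 42.3, 41.8 and 41.2 TPM, against 0.10, 1.24, 0.16 and 0.10 TPM in hindbrain. The DM-domain genes of the early cortex moved the same way, with differences of 4.04 for Dmrta2, 3.64 for Dmrta1 and 3.18 for Dmrt3. The noncoding neighbours Dmrta2os and Six3os1 were also among the 20 highest, at 3.63 and 4.27, but whether reads were assigned by strand is not given in the sources used here, so their reads cannot be told apart from those of Dmrta2 and Six3. Otx1, a homeobox factor of forebrain and midbrain, differed by 3.26 and averaged 46.8 TPM in forebrain and 49.5 TPM in midbrain.

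The telencephalic factors Nr2f1, Nr2f2 and Sp8 were not called. Nr2f1 (COUP-TFI), which is graded within the cortex, had 135, 207 and 212 TPM in forebrain and 178, 180, 166 and 168 TPM in hindbrain, and its difference was -0.04 (SE 0.13, adjusted p = 0.83). Nr2f2 had 58.4 to 71.0 TPM in forebrain and 52.6 to 81.4 TPM in hindbrain (adjusted p = 0.946). For both the groups overlapped. Sp8 was 0.73 higher (SE 0.16, adjusted p = 2.22e-04), short of the size threshold.

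The diencephalic, hypothalamic and optic factors were mixed, with 6 of 13 tested members called higher and 2 lower. Nkx2-1, which specifies the hypothalamus and the medial ganglionic eminence, had 23.3 TPM at E10.5 and 29.9 and 32.3 TPM at E11.5 in forebrain, against 0.39, 2.16, 0.54 and 0.07 TPM in hindbrain (difference 4.09, SE 0.25, adjusted p = 4.56e-16). Six3, a repressor of Wnt signalling at the rostral end, had 30.5, 15.4 and 16.6 TPM in forebrain and 0.75, 2.71, 0.23 and 0.12 TPM in hindbrain. The optic factors Vax1 and Rax differed by 2.44 and 1.66. Otp, a homeobox factor of neuroendocrine hypothalamic neurons that is also made in hindbrain neurons, was lower in forebrain, at -1.90 (SE 0.24), with 2.05, 9.78 and 14.7 TPM against 14.4, 13.8, 36.9 and 34.6 TPM in hindbrain.

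The ventral telencephalic genes gave more calls at E11.5 than at E10.5, where forebrain had 1 library. Of 12 tested, 7 were called higher over both stages and 0 lower. At E10.5 alone 1 was called higher and 1 lower, and at E11.5 alone 7 were higher and 0 lower. By the test of the change between stages, 6 of the 12 had a more positive difference at E11.5, and Dlx5, Dlx6 and Gsx2 were not called. Dlx1, a homeobox factor of GABAergic neurons of the ganglionic eminences, had 17.6 TPM at E10.5 and 55.9 and 66.6 TPM at E11.5 in forebrain, against 9.20 and 8.27 TPM at E10.5 and 1.75 and 2.78 TPM at E11.5 in hindbrain. Dlx2 had 16.2, 35.0 and 38.4 TPM in forebrain, against 8.87, 9.46, 1.83 and 1.73 TPM in hindbrain. The forebrain values of Dlx1 and Dlx2 were higher at the later stage and the hindbrain values lower, and at each stage the groups did not overlap. Dlx5 and Dlx6 followed with differences of 1.46 and 1.12, and Dlx6 was at 0.96 and not called without hindbrain E11.5 replicate 2.

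Gsx2, which sets the lateral ganglionic eminence apart from the cortex, was high at both stages, with 6.23, 14.8 and 14.6 TPM in forebrain against 1.35, 0.35, 2.90 and 4.97 TPM in hindbrain (difference 1.86, SE 0.17). Lhx8, a factor of cholinergic neurons, differed by 1.19 over both stages, by -0.23 at E10.5 alone and by 0.95 without hindbrain E10.5 replicate 2. Gad1 and Gad2, the enzymes that make GABA, differed by -0.47 and 0.28 and were not called.

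Cortical neurogenesis was marked by a pair of T-box genes. Eomes (Tbr2), the factor of intermediate progenitors, had 26.2 TPM at E10.5 and 46.5 and 55.4 TPM at E11.5 in forebrain, against 0.07, 0.23, 0.12 and 0.12 TPM in hindbrain (difference 5.05, SE 0.24, adjusted p = 4.45e-19). Tbr1, a factor of the first glutamatergic neurons of the cortex, had 11.9, 45.4 and 51.2 TPM in forebrain against 0.15 to 0.30 TPM in hindbrain (difference 4.38, SE 0.36). The other 10 tested members of this list gave 0 higher and 2 lower calls. Bhlhe22 was lower, at -1.39, and Neurod1, with 7.46, 17.2 and 19.4 TPM in forebrain and 34.9, 32.3, 18.3 and 19.5 TPM in hindbrain, was lower, at -1.04 over both stages, not called under either other scaling or without forebrain E11.5 replicate 1 (-0.9988), and at -0.05 without the forebrain E10.5 library. Without that library 5 members, not 2, were called higher. The proneural factors Neurog1 and Neurog2 differed by -0.64 and 0.57.

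Hox genes were found in hindbrain and hardly at all in forebrain. All 20 tested Hox genes, of 39 in the table, were called lower in forebrain, against 4.68% of all genes, and the other 19 were under the level filter. With median-of-ratios scaling 19 were called lower and with quantile normalization 18, Hoxa6 and Hoxc6 being the ones that missed the size threshold. At E10.5 alone 13 were called lower (4.46% of all genes were) and at E11.5 alone all 20 were. The summed level of the 39 genes was 0.77, 1.14 and 1.21 TPM in the forebrain libraries, against 231 and 154 TPM at E10.5 and 468 and 576 TPM at E11.5 in the hindbrain libraries. Because the genes of a cluster overlap and strand assignment is not given, reads of neighbouring Hox transcripts may be shared.

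Paralogue groups 1 to 3, expressed up to the front of the hindbrain, were present at both stages. Hoxa2, the gene of rhombomere 2 and the second branchial arch, had 0.03, 0.06 and 0.10 TPM in forebrain, against 48.4, 38.4, 47.9 and 55.2 TPM in hindbrain (difference -5.51, SE 0.19, adjusted p = 4.03e-23). Hoxb2 was as even, with 0.07, 0.03 and 0.06 TPM in forebrain and 38.3 to 45.6 TPM in hindbrain. Hoxb3 had 0.05, 0.07 and 0.03 TPM in forebrain, against 37.7, 22.3, 82.8 and 90.3 TPM in hindbrain (difference -5.61, SE 0.18). Hoxb1, a gene of rhombomere 4, had 0.06, 0.02 and 0.01 TPM in forebrain, and in hindbrain it had 8.85 and 14.4 TPM at E10.5 and 3.05 and 3.83 TPM at E11.5. Of the 7 genes of groups 1 to 3 tested, Hoxb1 alone had a smaller regional difference at E11.5 by the test of that change (2.12 against 3.54 in size, adjusted p = 2.93e-06), and Hoxb3 and Hoxd3 had a larger one.

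Groups 4 to 9, expressed further back, depended on the stage and on the library. Groups 4 and 5 summed to 0.13 TPM at E10.5 and 0.24 and 0.22 TPM at E11.5 in forebrain, against 47.7 and 5.60 TPM at E10.5 and 144 and 201 TPM at E11.5 in hindbrain. Groups 6 to 9 summed to 0.24, 0.40 and 0.28 TPM in forebrain, against 2.55 and 0.30 TPM at E10.5 and 48.7 and 68.3 TPM at E11.5 in hindbrain. For these genes the hindbrain libraries at E10.5 differed from each other by a larger ratio than those at E11.5 did, and the second E10.5 library was close to forebrain from group 6 on. The 6 tested genes of groups 6 to 9 gave 0 calls at E10.5 and 6 at E11.5. They passed the level filter only with the hindbrain libraries at E11.5, so this contrast is partly set by the filter. All 13 tested genes of groups 4 to 9 had a larger regional difference at E11.5 by the test of that change. Most of the 13 needed at least 1 hindbrain E11.5 library to pass the filter, so the same limit applies. Groups 10 to 13, of the trunk and tail, had no tested gene and summed to at most 0.47 TPM in any of the 7 libraries.

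**Figure D2:**
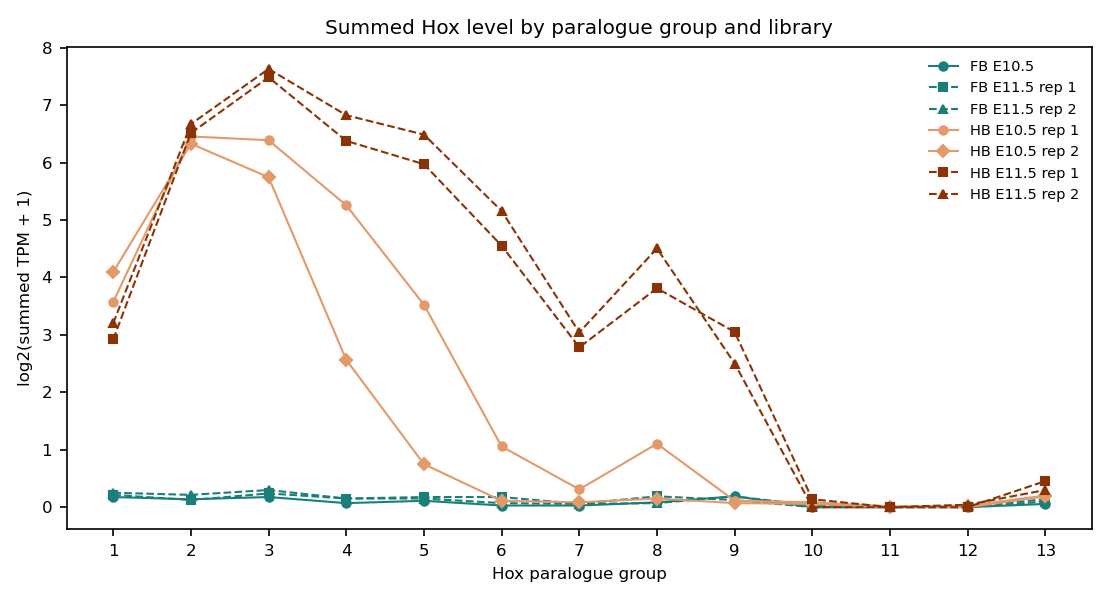
Summed level of the genes in each Hox paralogue group, as log2(summed TPM + 1), with a line for each forebrain (FB) and hindbrain (HB) library. The FB lines stay near 0 in every group, the HB lines are close together in groups 1 and 2 and spread from group 3 on, and the HB E11.5 lines reach group 9.

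The 2 hindbrain libraries at E10.5 also differed in some genes of the front end of the hindbrain and of the forebrain. These were picked after their values were seen, in the opposite sense to the Hox genes of groups 4 to 9. En2, an engrailed factor of the midbrain and the first rhombomere, had 11.2 TPM in replicate 1 and 29.9 TPM in replicate 2, Pax5 had 6.22 and 18.9 TPM, Cnpy1 37.4 and 93.3 TPM and Fgf17 5.70 and 22.9 TPM. Low levels of forebrain genes followed, with 0.33 and 2.45 TPM for Nr2e1, 0.75 and 2.71 TPM for Six3 and 4.53 and 10.4 TPM for Otx1. Replicate 2 was thus the higher of the pair in these 7 genes and the lower one in groups 4 to 9 of the Hox genes. The source of this difference was not tested.

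Genes of the midbrain-hindbrain border, which is organised by Fgf8 and Wnt1, were mostly lower in forebrain: 9 of 15 tested were called lower and 2 higher, with a median of -2.25. Cnpy1, an FGF signalling modulator of the border, had 0.98, 2.78 and 2.28 TPM in forebrain, against 37.4, 93.3, 90.05 and 72.2 TPM in hindbrain (difference -4.73, SE 0.26). En2 had 0.06, 0.03 and 0.02 TPM in forebrain and 11.2 to 29.9 TPM in hindbrain (difference -4.07, SE 0.21). Both were higher still in midbrain, at a mean of 145 and 34.2 TPM. The paired-box genes Pax2, Pax5 and Pax8 differed by -2.76, -2.49 and -3.20, and Gbx2, which marks the hindbrain side of the border, by -2.74. The 2 members called higher, named after their values were seen, were Otx2, which marks the other side, at 1.91, and the ligand gene Fgf8, at 1.43. Fgf17 and Spry1 were higher by 0.9985 and 0.9885 and missed the threshold of 1. With either other scaling, or without hindbrain E10.5 replicate 2, hindbrain E11.5 replicate 1 or the forebrain E10.5 library, 4 members were called higher.

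Factors that divide the hindbrain and turn over retinoic acid were lower in forebrain, with 11 of 14 tested segmentation genes called lower and 0 higher. Cyp26b1, an enzyme that degrades retinoic acid, had 2.05, 1.5 and 1.67 TPM in forebrain, against 33.7, 49.1, 55.9 and 47.9 TPM in hindbrain (difference -4.06, SE 0.18, adjusted p = 1.75e-19). Cyp26c1 and Cyp26a1, its relatives, differed by -3.18 and -2.28. The Iroquois factors Irx2, Irx1 and Irx5 were lower, at -3.66, -2.97 and -1.65, and Meis1, a partner of Hox proteins, by -1.92. These Iroquois factors were not particular to hindbrain. In midbrain Irx2 had 47.2 to 75.9 TPM (57.4 to 92.2 TPM in hindbrain) and Irx1 28.4 to 42.3 TPM (28.6 to 48.5 TPM). Irx5 had 24.7 to 36.2 TPM in midbrain and 18.6 to 28.2 TPM in hindbrain. The receptor Epha4, which keeps rhombomeres apart, differed by -0.25.

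The remaining retinoic acid genes split by enzyme and stage, with 2 of 16 tested called higher and 5 lower. Aldh1a2 (Raldh2), which makes retinoic acid in mesoderm, had 0.70, 1.01 and 1.21 TPM in forebrain, against 1.37 and 1.39 TPM at E10.5 and 9.35 and 10.6 TPM at E11.5 in hindbrain. Aldh1a3 (Raldh3), an enzyme of the eye and nose region, had 25.0 TPM at E10.5 and 1.52 and 2.20 TPM at E11.5 in forebrain, against 2.07 to 2.91 TPM in hindbrain. Aldh1a1 had 15.9 TPM at E10.5 and 1.09 and 0.29 TPM at E11.5 in forebrain, against 1.0 to 1.52 TPM in hindbrain. Both calls of a higher level rest on the forebrain E10.5 library: without it the difference was -0.38 (adjusted p = 0.0839) for Aldh1a3 and -0.33 (adjusted p = 0.203) for Aldh1a1, and 0 members of the list were called higher. Crabp1, a cytoplasmic binding protein for retinoic acid, had 1200, 241 and 225 TPM in forebrain, against 1672, 1745, 931 and 916 TPM in hindbrain (difference -1.25, SE 0.14), and the receptor gene Rxrg differed by -1.24.

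Genes of hindbrain neuron types were lower in forebrain in each of the 3 lists that describe them, but not all were particular to hindbrain. The interneuron list summed to 202 to 364 TPM in midbrain, against 142 to 218 TPM in hindbrain. The motor and cranial efferent list summed to 23.6 to 28.2 TPM in midbrain, against 115 to 141 TPM in hindbrain. Of the rhombic lip and cerebellar genes, 6 of 11 tested were called lower and 0 higher. Atoh1, the proneural factor of cerebellar granule cells and precerebellar neurons, had 0.06, 0.09 and 0.05 TPM in forebrain, against 19.9, 21.0, 17.0 and 16.2 TPM in hindbrain (difference -4.19, SE 0.13, adjusted p = 8.96e-24). Ptf1a, the factor of cerebellar GABAergic neurons, differed by -2.19, Barhl1 by -2.58 and Olig3 by -2.10. In midbrain Barhl1 had 12.3 to 17.6 TPM (9.31 to 13.1 TPM in hindbrain), whereas Atoh1 and Ptf1a had at most 1.97 and 0.11 TPM. Olig3 had 8.86 to 15.3 TPM in midbrain and 30.2 to 35.4 TPM in hindbrain. The 5 Zic genes on the list, which are dorsal along the whole neural tube, were not called. Zic1 had 189, 163 and 141 TPM in forebrain and 208, 215, 135 and 152 TPM in hindbrain, with overlapping groups.

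Of the interneuron factors of hindbrain and spinal cord, 13 of 17 tested were called lower and 1 higher. Among those called lower, Tlx3, Lbx1, Lhx4, Prrxl1 and Evx1 were at most 0.14 TPM in forebrain. They passed the level filter through hindbrain alone and could only come out lower. Pou4f1 (Brn3a), made in sensory and dorsal neurons, had 0.91, 1.91 and 1.93 TPM in forebrain, against 27.8, 22.4, 33.8 and 39.6 TPM in hindbrain (difference -3.72, SE 0.16). In midbrain Pou4f1 had 15.2 to 29.1 TPM. Dbx1, also called lower, had 97.6 to 129 TPM in midbrain and 26.7 to 57.2 TPM in hindbrain. Lbx1 and Evx1 had at most 0.09 and 0.47 TPM in midbrain. Tlx3 and Lbx1, which set dorsal neurons on a glutamatergic and a GABAergic course, had at most 0.10 TPM in forebrain, against 6.43 to 8.26 TPM of Tlx3 and 2.5 to 12.3 TPM of Lbx1 in hindbrain. Lhx4, Prrxl1 and Evx1 were lower, at -3.10, -2.79 and -2.64. The member called higher was Tal2 (1.08), named after its values were seen, and it was not called at E10.5 alone, with a pseudocount of 5, with a replicate block, or without forebrain E11.5 replicate 1 or hindbrain E10.5 replicate 1.

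Of the motor and cranial efferent genes, 7 of 11 tested were called lower and 0 higher. Phox2a, Tbx20 and Isl2 were lower, at -2.66, -2.35 and -2.89. Slc18a3, the vesicular acetylcholine transporter, was low in both regions, with at most 0.06 TPM in forebrain and 1.52 to 3.37 TPM in hindbrain. Of 7 noradrenergic and serotonergic genes tested, Dbh, which makes noradrenaline, was the 1 called. It had 0.01 to 0.02 TPM in forebrain against 4.52, 6.91, 2.55 and 3.0 TPM in hindbrain. The count was 2 without the forebrain E10.5 library and 3 at a pseudocount of 0.1. It was 0 at a pseudocount of 5 or at a minimum of 5 TPM in 2 libraries. Several of these genes, such as Pou4f1, Tlx3 and Isl2, are also made in cranial ganglia, whose markers moved the same way (given with the other tissues), and the part of the ganglia in these differences was not tested.

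Dorsal and ventral signalling genes differed by factor more than by pathway. In the Sonic hedgehog and floor plate list, 1 of 18 tested was called higher and 3 lower (0.816% and 4.68% of all genes). Olig2, a factor of ventral progenitors, had 19.9 TPM at E10.5 and 27.1 and 26.2 TPM at E11.5 in forebrain, against 0.92, 1.75, 1.39 and 1.26 TPM in hindbrain (difference 3.38, SE 0.14, adjusted p = 2.33e-20). Foxa2, of the floor plate, and Nkx6-1 and Nkx6-2, of ventral progenitors, were lower in forebrain, at -2.71, -2.83 and -2.33. The receptor component Smo had 78.5 to 97.7 TPM in forebrain and 63.4 to 92.7 TPM in hindbrain, with a difference of 0.25. Gli3, the main repressor of the pathway, was 0.70 higher (SE 0.13, adjusted p = 2.96e-05) and not called.

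In the roof plate and BMP list, 4 of 18 tested were called higher and 3 lower (0.816% and 4.68% of all genes). Msx3, a dorsal homeobox gene, had 0.42, 1.39 and 1.14 TPM in forebrain, against 59.6, 55.8, 59.3 and 62.7 TPM in hindbrain (difference -5.07, SE 0.17). Its relative Msx1 did not separate the regions, with 53.7 to 85.9 TPM in forebrain and 45.6 to 74.6 TPM in hindbrain (adjusted p = 0.204). The R-spondins Rspo1, Rspo2 and Rspo3, which enhance Wnt signalling and mark the cortical hem region, were higher by 1.74, 2.21 and 2.08. Among the Id genes, targets of BMP signals, Id4 was higher by 1.91 and Id1 lower, at -1.36, and Id3 had overlapping groups.

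In the WNT list, 3 of 23 tested were called higher and 2 lower (0.816% and 4.68% of all genes). Wnt8b, a ligand of the cortical hem and the hypothalamus, had 38.0, 36.4 and 49.2 TPM in forebrain, against 0.14, 0.84, 0.23 and 0.21 TPM in hindbrain (difference 4.95, SE 0.16, adjusted p = 8.25e-24). The receptors split, with Fzd8 higher by 1.98 and Fzd10 lower, at -1.75. The ligands Wnt5a and Wnt5b were called in opposite directions, at -1.36 and 1.09, and without the forebrain E10.5 library Wnt5b was at 0.79 and 4 members were called lower. In the FGF list 0 of 16 were higher and 1, the ligand Fgf10, was lower (-1.25; 3 without the forebrain E10.5 library), and the receptors Fgfr1, Fgfr2 and Fgfr3 differed by 0.34, -0.33 and -0.48. In the Eph and ephrin list 1 of 19, Epha5, was called lower (-1.06), against 4.68% of all genes. It was not called without the forebrain E10.5 library or forebrain E11.5 replicate 1, nor under either other scaling.

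Genes of differentiated neurons were lower in forebrain as a group: 21 of 25 tested were called lower and 0 higher, with a median of -2.09. Nefl, the light neurofilament chain, had 4.22 TPM at E10.5 and 13.6 and 14.4 TPM at E11.5 in forebrain, against 156 and 109 TPM at E10.5 and 278 and 264 TPM at E11.5 in hindbrain (difference -4.42, SE 0.12, adjusted p = 1.59e-25). Nefm, the medium chain, had 7.34, 19.8 and 22.3 TPM in forebrain, against 232, 206, 264 and 275 TPM in hindbrain (difference -4.17, SE 0.13). Levels were higher at E11.5 than at E10.5 in both regions, and the forebrain at E11.5 lay below the hindbrain at E10.5 for both chains.

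Not every neuronal gene was as far apart. Dcx, which binds microtubules in migrating neurons, had 10.8, 50.2 and 93.0 TPM in forebrain and 77.4, 54.6, 229 and 220 TPM in hindbrain, so that the groups overlapped across stages but not within one. Its difference was -2.09 (SE 0.15), and it was named after its values were seen. Cntn2 (TAG-1), an adhesion protein of growing axons, had 2.36, 19.5 and 27.4 TPM in forebrain, against 56.0, 46.1, 93.8 and 108 TPM in hindbrain (difference -3.01, SE 0.14). Ebf1 and Onecut1, transcription factors of early neurons, differed by -2.57 and -2.53. The vesicular glutamate transporter Slc17a6 (-0.67), the synaptic gene Syt1 (-0.96) and Myt1l (-0.75) had adjusted p under 0.05 and missed the size threshold. Markers of cranial ganglia moved the same way, and their part in this result was not tested. In midbrain, Nefl and Nefm averaged 83.2 and 105 TPM, between the means of forebrain (10.7 and 16.48 TPM) and hindbrain (202 and 244 TPM).

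Axon guidance genes were also lower, with 10 of 26 tested netrin, slit and semaphorin genes called lower and 0 higher. Robo3, which lets commissural axons cross the midline, had 6.83, 26.9 and 25.8 TPM in forebrain, against 130, 61.5, 167 and 185 TPM in hindbrain (difference -3.11, SE 0.23). The midline ligands Slit1, Slit3 and Ntn1 were lower, at -2.94, -1.70 and -1.75, and the netrin receptors Dcc and Unc5c by -1.41 and -1.90. The plexin co-receptors Plxna1 and Plxna3 differed by -0.44 and -0.52 and were not called.

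Progenitor genes gave calls in both directions, and cell cycle genes gave none. Of 20 progenitor genes tested, 2 were called higher and 2 lower, against 0.816% and 4.68% of all genes. Vim, the intermediate filament of radial cells, had 938, 1744 and 1518 TPM in forebrain, against 964, 980, 1507 and 1547 TPM in hindbrain (difference 0.02, SE 0.09). Hmga2, a chromatin protein of young stem cells, was higher by 1.16, with 471, 206 and 281 TPM in forebrain and 177, 200, 115 and 127 TPM in hindbrain. Sox1 was higher by 1.02 and was not called without any of 3 libraries (forebrain E11.5 replicate 2, hindbrain E10.5 replicate 1, hindbrain E11.5 replicate 1). Fabp7 and the Notch ligand Dll3 were lower, at -1.46 and -1.22, and without the forebrain E10.5 library both lost the call (-0.94 and -0.65), as did Hmga2 (0.99).

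Of 22 cell cycle genes, 0 were called in either direction (5.5% of all genes were). Yet 21 of the 22 differences were positive, with a median of 0.34 against -0.09 over all genes. Rrm2, a subunit of ribonucleotide reductase, had 323, 292 and 313 TPM in forebrain, against 222, 275, 170 and 186 TPM in hindbrain, and differed by 0.57 (SE 0.10, adjusted p = 1.59e-05). Pcna, the DNA polymerase clamp, had 470, 604 and 621 TPM in forebrain, against 385, 398, 419 and 408 TPM in hindbrain (difference 0.41). In both genes every forebrain library lay above every hindbrain library, and 7 of the 22 genes did so, against 6.22% of all genes. In tissue RNA a larger share of cycling cells and more of these transcripts in each cell cannot be told apart, and the same holds for every marker list here.

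**Figure D3:**
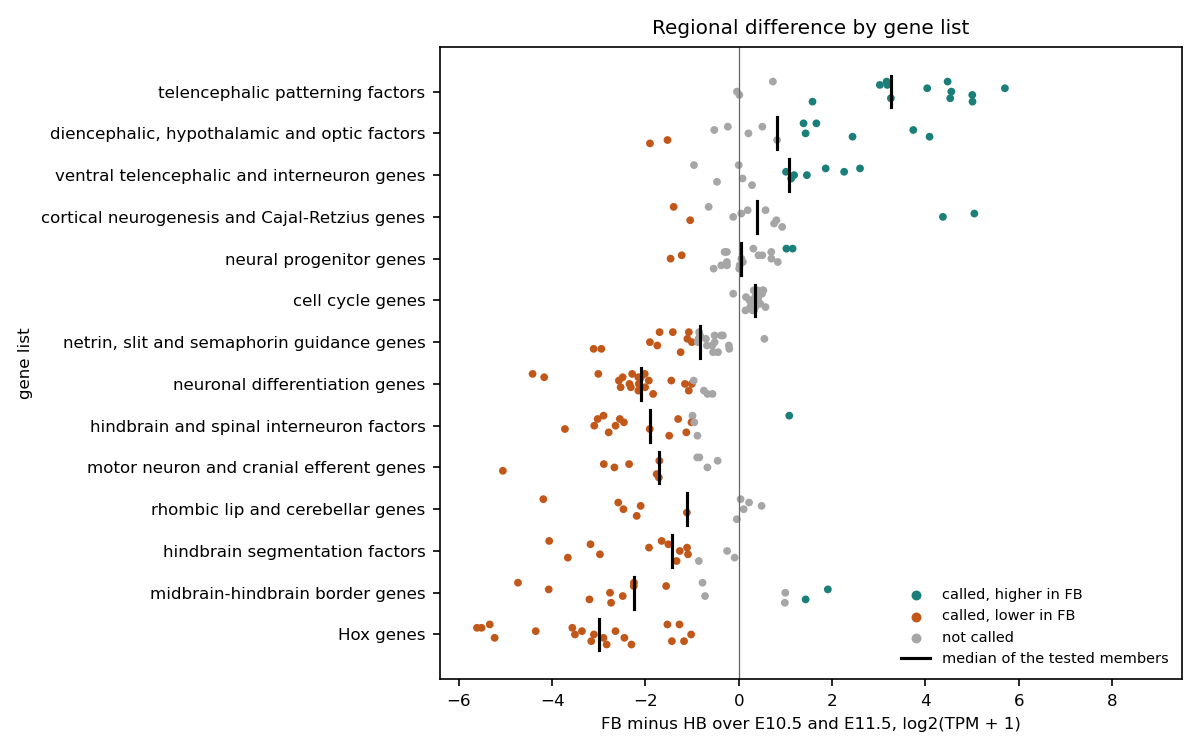
Forebrain (FB) minus hindbrain (HB) difference over E10.5 and E11.5 on the log2(TPM + 1) scale, with a point for each tested member of 14 gene lists and a bar at the list's median. The telencephalic factors have a median of 3.26, the cell cycle genes cluster near 0.34, and the neuronal differentiation and Hox genes have medians of -2.09 and -3.0.

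The series concerns DNA methylation, and the genes that place, copy, read and remove it gave no call. Of 14 tested, 0 were called in either direction, and the median difference was 0.01. Of all genes 5.5% were called, and a list this short can give 0 calls at that share. Uhrf1, which brings the maintenance methyltransferase to replicating DNA, had 225, 238 and 262 TPM in forebrain, against 161, 208, 155 and 160 TPM in hindbrain (difference 0.48, SE 0.12, adjusted p = 8.47e-04), with no overlap. The glycosylase Tdg had 180 to 219 TPM in forebrain and 165 to 204 TPM in hindbrain (difference 0.05). Of 18 Polycomb genes, 0 were called, a count that the same share can also give. Ezh2, the H3K27 methyltransferase, differed by 0.14 (SE 0.08), with 227, 237 and 278 TPM in forebrain against 210 to 237 TPM in hindbrain.

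Markers of tissues that lie beside the neural tube, and of the choroid plexus and the eye, were measured in the same libraries, and several moved with the regions. Of 11 tested neural crest and cranial ganglion markers, 9 were called lower in forebrain and 0 higher. The summed level of the 12 on the list was 39.5 to 77.9 TPM in forebrain and 231 to 310 TPM in hindbrain, and in midbrain it was 113 to 129 TPM. Sox10, of crest and its glia, had 2.82, 0.88 and 1.14 TPM in forebrain, against 42.6, 38.2, 13.8 and 16.54 TPM in hindbrain (difference -3.22, SE 0.13). Prph, a filament of peripheral and cranial motor neurons, had 0.23 to 0.27 TPM in forebrain and 5.07 to 17.1 TPM in hindbrain. Sncg, abundant in sensory neurons, had 1.71, 5.89 and 5.47 TPM in forebrain, against 127, 54.9, 188 and 162 TPM in hindbrain, and averaged 69.4 TPM in midbrain. No marker on this list was at 0 in any forebrain library.

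The gene with the lowest difference of all named, Oc90, encodes a matrix protein of the inner ear's otoconia. It had 0.03, 0.00 and 0.03 TPM in forebrain, against 68.0, 22.0, 102 and 93.3 TPM in hindbrain (difference -5.94, SE 0.43, adjusted p = 7.84e-14). The other 8 otic and surface ectoderm markers were not called (3 of the list were without the forebrain E10.5 library), and the list's 9 genes summed to 33.0 to 80.7 TPM in forebrain and 110 to 165 TPM in hindbrain. In choroid plexus genes, 3 of 5 tested were called lower. Ttr, the transthyretin made by choroid epithelium, had 0.63 TPM at E10.5 and 17.6 and 13.2 TPM at E11.5 in forebrain, against 161 and 35.3 TPM at E10.5 and 267 and 271 TPM at E11.5 in hindbrain, and the 6 listed genes summed to 13.4 to 33.0 TPM in forebrain and 49.6 to 300 TPM in hindbrain. In both Ttr and Oc90 the second E10.5 library was the lowest of the 4 hindbrain libraries.

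Muscle and somite markers were called lower in 7 of 9 tested and summed to 2.36 to 5.57 TPM in forebrain and 23.6 to 90.7 TPM in hindbrain. Actc1, cardiac and embryonic actin, had 0.76, 0.43 and 0.51 TPM in forebrain, against 10.2, 14.2, 26.7 and 36.4 TPM in hindbrain (difference -3.67, SE 0.66). These levels were highest in the hindbrain libraries at E11.5, as were the Hox genes of groups 4 to 9, and at E10.5 alone 2 members were called. Acta1 was not called when any of 4 libraries was left out (either forebrain E11.5 library or either second hindbrain library). The part of adjoining tissue in the lower values of crest, muscle and Hox genes was not tested.

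Of 15 markers of head mesenchyme and meninges, 3 were called higher. Among them were Alx1 and Alx4, homeobox genes of the frontonasal mesenchyme, which were higher by 2.92 and 1.07. Alx4 was at 0.75 without the forebrain E10.5 library and at 0.9965 without forebrain E11.5 replicate 2. The collagens of the list were not called, and its 15 genes summed to 641 to 749 TPM in forebrain and 579 to 880 TPM in hindbrain. The forebrain E10.5 library also carried pigmented eye genes. Pmel had 13.9 TPM at E10.5 and 1.89 and 1.16 TPM at E11.5 in forebrain, against 1.91 to 3.52 TPM in hindbrain, and the 9 lens and eye markers summed to 24.5 TPM in that library, 9.0 and 8.21 TPM at E11.5 and 4.01 to 9.02 TPM in hindbrain. Cryaa and Crygs, of the lens, were at or under 0.10 TPM in all 7. Dct, the only eye marker called (1.21), lost the call without the forebrain E10.5 library or without hindbrain E10.5 replicate 2.

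Blood, vessel, microglia and hepatocyte markers gave 0 calls in either direction by limma. Of all genes 5.5% were called, and lists this short can give 0 calls at that share. The 13 blood genes summed to 13900 to 20600 TPM in forebrain and 13100 to 16480 TPM in hindbrain, the 10 endothelial genes to 213 to 229 TPM in forebrain and 214 to 263 TPM in hindbrain, and the 9 microglia genes to 52.45 to 73.2 TPM in forebrain and 70.4 to 106 TPM in hindbrain. All 9 microglia differences were negative, with a median of -0.505, and C1qb differed by -0.57 (adjusted p = 9.68e-05). Xist and 4 Y-linked genes were present in all 7 libraries, and their differences were not called.

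**Figure D4:**
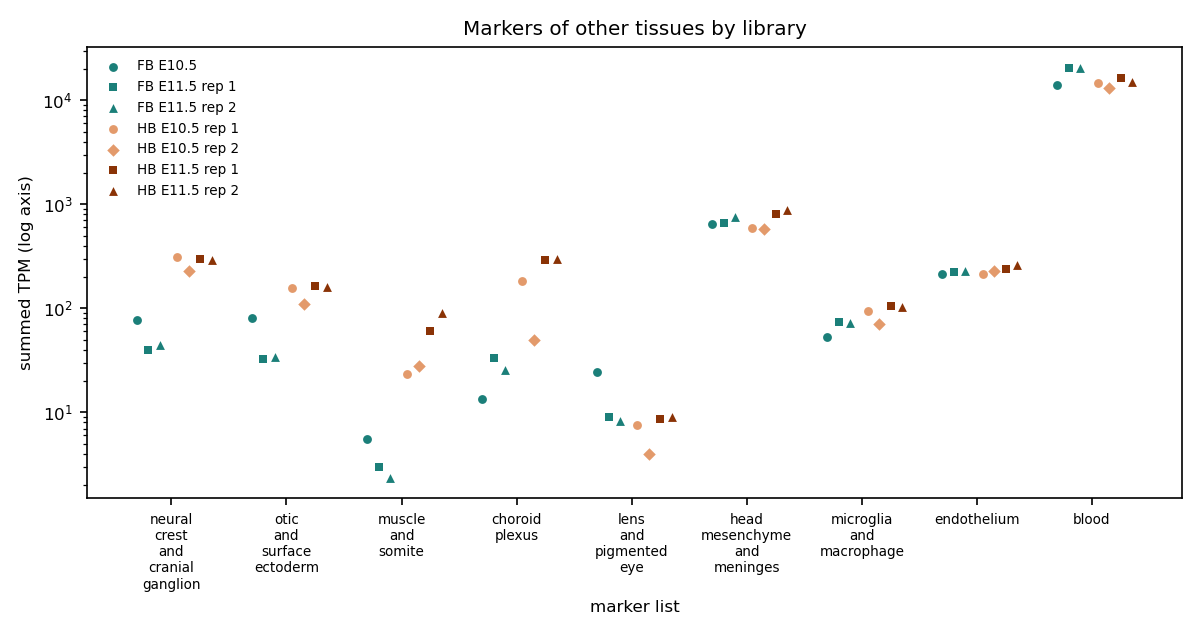
Summed TPM, on a log axis, of 9 lists of markers of tissues beside the neural tube, and of the choroid plexus and the eye, in each forebrain (FB) and hindbrain (HB) library. Neural crest, otic, muscle and choroid plexus markers are higher in every HB library than in any FB library, lens and eye markers are highest in FB E10.5, and vessel and blood markers overlap or lie close.

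The regional difference changed between E10.5 and E11.5 in 248 genes (1.61%), of which 110 had a more positive forebrain minus hindbrain difference at E11.5 (0.713%) and 138 a more negative one (0.894%). This test rests on the single forebrain library at E10.5, and all the libraries at E10.5 had a higher mitochondrial share. Among the Hox genes 15 of 20 changed in the negative direction and 1 (Hoxb1) in the positive. Most of the 15 passed the level filter only with the hindbrain libraries at E11.5, which partly sets that direction. Hoxa5, of the caudal hindbrain and cervical cord, had 0.02 TPM at E10.5 and 0.05 and 0.04 TPM at E11.5 in forebrain, against 2.55 and 0.12 TPM at E10.5 and 24.9 and 33.3 TPM at E11.5 in hindbrain (change -3.87, SE 0.40, adjusted p = 2.52e-08). Hoxb5, Hoxb6 and Hoxb8 changed by -3.49, -3.85 and -3.43. When the 7 compared libraries were fitted alone none of these 4 changes was called by limma (adjusted p = 0.166 for Hoxa5, 0.254 for Hoxb5, 0.0510 for Hoxb6 and 0.0997 for Hoxb8), and Hoxb5 was also not called with the brain libraries of these stages alone (adjusted p = 0.0729). In each gene the hindbrain libraries of the 2 stages did not overlap, and muscle markers, which were also highest in hindbrain at E11.5, stood at 23.6 and 27.9 TPM at E10.5 and 60.1 and 90.7 TPM at E11.5.

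Among the ventral telencephalic genes 6 of 12 changed in the positive direction and 0 in the negative. Dlx1, whose values stand above, changed by 3.33 (SE 0.87, adjusted p = 0.019), and by 3.10 without hindbrain E11.5 replicate 1, where it was not called (adjusted p = 0.0831), nor was it with a pseudocount of 0.1 (adjusted p = 0.195). Retinoic acid genes went the other way, with 8 of 16 changed in the negative direction, among them Aldh1a3 (-3.40, SE 0.29) and Aldh1a1 (-3.11, SE 0.33). Trpm1, a channel of melanocytes and the retina, had 31.6 TPM in forebrain at E10.5 and 0.90 and 1.23 TPM at E11.5, against 0.47 to 3.22 TPM in hindbrain, a change of -3.08 (SE 0.26) that was not called with the 7 libraries fitted alone (adjusted p = 0.0764). These 3 genes were high in the same forebrain E10.5 library as the pigmented eye markers.

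Neuronal genes narrowed the gap in 5 of 25 cases and widened it in 0. Sst, the neuropeptide somatostatin, had 1.34 TPM at E10.5 and 6.38 and 7.08 TPM at E11.5 in forebrain, against 127 and 98.5 TPM at E10.5 and 39.8 and 46.7 TPM at E11.5 in hindbrain (change 3.07, SE 0.26). The largest value of this test belonged to Mir8114, a short microRNA gene listed at 0 in all 3 forebrain libraries and in both hindbrain libraries at E11.5, and at 320 and 415 TPM in hindbrain at E10.5. Its change of 8.51 (SE 2.11, adjusted p = 0.012) is set by the pseudocount and gives no fold, it was not called with a pseudocount of 0.1 (adjusted p = 0.124), and in midbrain it had 447 and 398 TPM at E10.5.

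**Figure D5:**
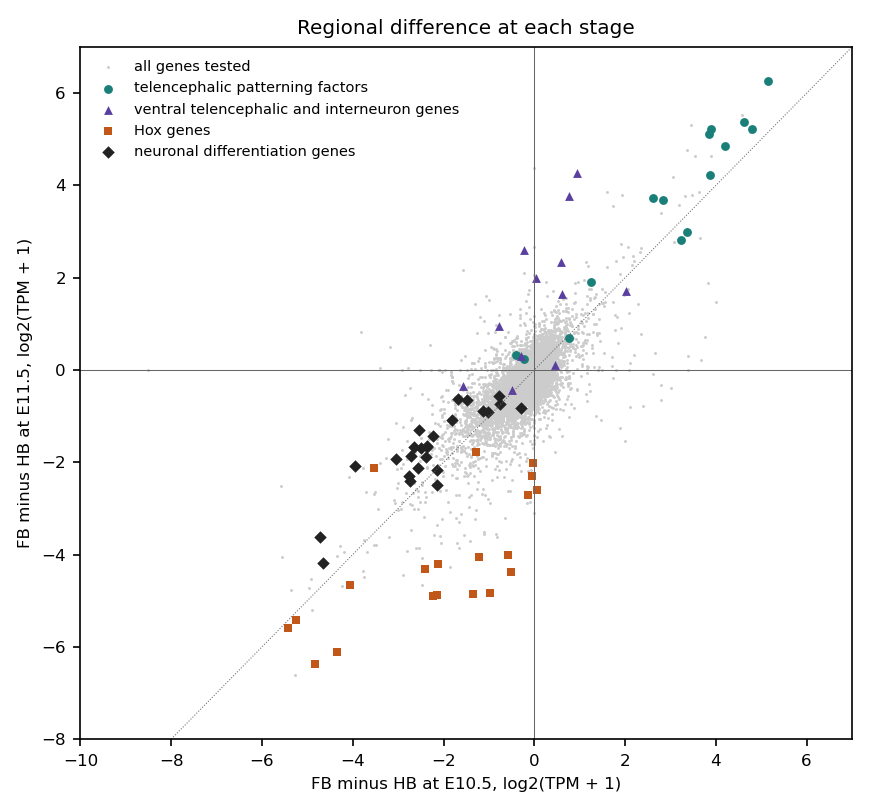
Forebrain (FB) minus hindbrain (HB) difference at E10.5 (x axis) against E11.5 (y axis) on the log2(TPM + 1) scale for all 15436 genes tested, with 4 gene lists marked and a dotted line of equal values. Above the line, with a more positive difference at E11.5, lie 12 of 15 telencephalic factors, 10 of 12 ventral telencephalic genes, 22 of 25 neuronal genes and 1 of 20 Hox genes.

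The early differences were set beside those at E13.5 and E14.5, where each region has 4 libraries, to see which were larger early. Of 16522 genes tested over these stages, 1010 (6.11%) had another regional difference early than later, 473 in the positive direction (2.86%) and 537 in the negative (3.25%). The early libraries are the same as above, so these values are not independent of the early differences. The change was not called for the leading factors: Nr2e1 differed by 5.70 early and 5.28 later, and Eomes by 5.05 early and 5.4 later.

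Other differences were larger early. Olig2 differed by 3.38 early and 0.59 later, where it had 10.7 to 17.6 TPM in forebrain and 6.74 to 11.1 TPM in hindbrain (early minus later 2.79, SE 0.19). Wnt8b differed by 4.95 early and 2.79 later, with 5.59 to 11.9 TPM in the later forebrain (early minus later 2.16, SE 0.21). Some genes that were lower in early forebrain were not so later. Cntn2 differed by -3.01 early and by 0.48 later, at 88.9 to 124 TPM in forebrain and 54.3 to 94.2 TPM in hindbrain (early minus later -3.49, SE 0.19). Sst differed by -4.05 early and -0.58 later, and Sstr2, a somatostatin receptor gene, by -2.21 early and 1.34 later. Nefl differed by -4.42 early and -3.42 later, a change (-0.9988) just short of the size threshold.

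Dlx1 and Dlx6 differed by 2.60 and 1.12 early and by more, 5.97 and 4.56, later, and Tiam2, a Rac activator that was not called early (-0.41), differed by 2.97 later. Hoxa5 and Hoxb8 differed by -2.90 and -2.30 early and by -6.74 and -6.41 later. Ttr differed by -4.80 early and -1.32 later, when it had 500 to 702 TPM in forebrain and 975 to 2018 TPM in hindbrain. Mir8114, whose early value rests on the hindbrain at E10.5, changed by -5.66, and by -1.40 with no call (adjusted p = 0.535) without the forebrain E10.5 library.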

How the data were processed

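RNA was sequenced from mouse forebrain, midbrain, hindbrain and liver. Total RNA came from a kit for fatty tissue and mRNA libraries were stranded, per the labels' protocols. TPM values were deposited by the authors as 1 table, with a column for each of 61 libraries and no pooling. Per the submitters' processing notes, STAR 2.4.0k, RSEM 1.2.23 and mm10 were named. What each did, the annotation and the strand setting: not given in the sources used here. TPM keeps no counts, so depth is unknown, no counting interval is given, and a rise in a few abundant genes lowers all others.

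Columns were grouped by header. In 4 columns of E16.5 or P0 the header and the sample title name different stages, and the header was used. Of 43346 identifiers, 42462 matched a symbol in GENCODE M21 (GRCm38, the assembly of mm10) and 884 did not. Genes with at least 1 TPM in 2 of the compared libraries entered limma 3.58.1 under R 4.3.3 (trend, two-sided) on log2(TPM + 1), a scale that understates the change of low genes, with 1 mean per tissue and stage over all 61 libraries (30 residual degrees of freedom). Every p-value printed is limma's, adjusted by Benjamini-Hochberg over all genes tested. A call needs an adjusted p under 0.05 and an absolute log2 difference of at least 1. The procedure was run on simulated data in which each gene had the same spread in every group. That check cannot bear on the spread assumed for the 1 forebrain library at E10.5.

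The 34 gene lists (522 genes) and the comparisons were chosen with earlier results of these data known. Named are the 20 highest and 20 lowest called genes that average 5 TPM or more in either region without overlap, all Hox genes, up to 6 called and 3 uncalled members of each list (by size and by TPM), and the 10 largest changes for stage, leaving out predicted genes and pseudogenes; some genes that this rule names are not reported here, though they stay in the fits and counts. Alternatives changed the pseudocount, filter, scaling, libraries fitted, replicate block and each left-out library. Promoters were taken from RefSeq (GRCm38.p6) by symbol.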

Additional observations from a re-analysis of the deposited data

Results flagged for a closer look

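The forebrain minus hindbrain difference changed between E10.5 and E11.5 in 10 named genes, by limma's test of the change itself, each with an adjusted p under 0.05. These are the 10 called genes of largest change, and the forebrain has 1 library at E10.5.

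Hoxa5, Hoxb6, Hoxb5 and Hoxb8, Hox genes expressed further back along the neural tube, changed by -3.87, -3.85, -3.49 and -3.43 on the log2(TPM + 1) scale. Forebrain was near 0 at both stages and hindbrain was higher at E11.5. Aldh1a3, Aldh1a1 and Trpm1, genes of the eye region, changed by -3.40, -3.11 and -3.08, with high values in the forebrain E10.5 library and none of the other 6 above 3.22 TPM. Dlx1, of ventral forebrain neurons, changed by 3.33 and the neuropeptide gene Sst by 3.07. Mir8114 changed by 8.51, with 319.5 and 415 TPM in hindbrain at E10.5 and a value listed at 0 in the other 5 libraries. With the 7 compared libraries fitted alone the changes of Hoxa5, Hoxb5, Hoxb6, Hoxb8 and Trpm1 were not called (adjusted p 0.0510 to 0.254), with a pseudocount of 0.1 those of Dlx1 and Mir8114 were not (0.195 and 0.124), Hoxb5 was not with the brain libraries of these stages alone (0.0729), and Dlx1 was not without hindbrain E11.5 replicate 1 (0.0831). No explanation of these changes was tested.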

How the results depend on the processing

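Of 258 named results, 155 kept their direction and their side of the threshold in each of 31 alternative settings that could give a value. At a pseudocount of 0.1, the regional comparison called 1403 genes, 1220 of them lower, and the early against later comparison 1621 (781 and 840). At a pseudocount of 5 they called 340 (62 higher, 278 lower) and 423 (163 and 260), and the change between stages 88 (30 and 58). Quantile normalization gave 194 genes higher in forebrain. The change between stages gave 162 calls (79 lower) at a minimum of 5 TPM and 66 (33 and 33) when the compared libraries were fitted alone. The cause of these differences was not tested.

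Leaving out 1 library gave 795 to 1008 regional calls (120 to 165 higher, 674 to 843 lower), 194 to 337 changes between stages (93 to 112 higher, 101 to 233 lower; 233 without forebrain E11.5 replicate 2) and 840 to 1051 early against later (371 to 513 higher, 469 to 589 lower). The change between stages could not be computed without the forebrain E10.5 library.

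At E10.5 alone Lhx8 was at -0.23 and Hoxb9 at 0.063. At E11.5 alone, Aldh1a3 was at -0.38 and Aldh1a1 at -0.33. Leaving out 1 library in turn put Aldh1a3 between -0.38 (without forebrain E10.5) and 1.40, and Aldh1a1 between -0.33 (without forebrain E10.5) and 1.40. The cause of these reversals was not tested.

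Deviations of libraries with the same number correlated across genes at r = 0.098 for forebrain and hindbrain, 0.199 for forebrain and midbrain and 0.128 for hindbrain and midbrain at E11.5, and at 0.132 for hindbrain and midbrain at E10.5 (genes are not independent). Not every pair passed 0.1, and the labels name no shared litter or day, so the numbers were not taken to pair the libraries. With a replicate block the regional comparison called 806 genes (128 higher, 678 lower), Sox1 (0.96) and Tal2 lost their calls, and Bhlhe23 (-1.01) gained one.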
